A study of Mus musculus with 4 samples.

Results

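The genes described here are 8 enzymes of cholesterol synthesis, Hmgcs1, Idi1, Fdps, Fdft1, Sqle, Cyp51, Ebp and Dhcr7. They were taken as every probe of the array whose platform annotation carries 1 of these symbols, which gave 12 of 46632 probes and 8 of 17711 named genes. RNA was measured with Illumina bead arrays, 1 per tumour, in subcutaneous tumours of B16-F10-luc-G5 cells, a luciferase-expressing subline of the mouse B16 melanoma. The tumours came from the abdominal area of 2 VAP-1 -/- mice (replicates 1 and 2) and 2 wild-type mice (replicates 2 and 3), all taken at day 10. VAP-1, encoded by Aoc3, is an adhesion molecule and amine oxidase of vessels, and only the host lacks it: the injected cells were of the same line in both groups. The sources used here give no strain, age or sex of the mice.

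Cholesterol is built from acetyl-CoA through mevalonate, isoprenoid diphosphates, squalene and lanosterol. Hmgcs1 acts at the start of this route, Idi1 and Fdps in its isoprenoid part, Fdft1 and Sqle at squalene, and Cyp51, Ebp and Dhcr7 on the sterol ring. When membranes of the endoplasmic reticulum are low in sterol, SREBP-2, the product of Srebf2, is escorted by Scap to proteases that cut it. The part set free switches on most of these genes at sterol regulatory elements, usually together with the CCAAT-binding factor NF-Y. Insig1 holds Scap back when sterol is plentiful and is itself a target of SREBP. Growing tumour cells need the products of the route for membranes and for lipid anchors of signalling proteins.

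Promoter sequences are shown because the route is known for control at its promoters. RefSeq entries of build GRCm38.p6 were matched for 5 of the 8 genes, Hmgcs1, Idi1, Cyp51, Ebp and Dhcr7, the last with 3 start sites. The 250 bases before each start were searched on both strands for TCACNNCA, the core of a sterol regulatory element, and for CCAAT, letters chosen with these sequences in view. TCACNNCA was found in 11.4% of all 32851 promoter windows of the same length, CCAAT in 33.8% and both in 3.8%. These shares are per window, while a gene with several starts, such as Dhcr7, is counted below at any of them. Capitals mark matches to either motif on either strand. The Hmgcs1 window (chr13:119690101-119690350, plus strand) is shown for the gene that was higher in the knockout tumours, and the Ebp window (chrX:8193513-8193762, minus strand) for the gene with the widest gap in the other direction. The Cyp51 window (chr5:4104698-4104947, minus strand) and that of the third Dhcr7 start (chr7:143829964-143830213, plus strand) are shown as those of lower genes that hold both motifs.
Hmgcs1: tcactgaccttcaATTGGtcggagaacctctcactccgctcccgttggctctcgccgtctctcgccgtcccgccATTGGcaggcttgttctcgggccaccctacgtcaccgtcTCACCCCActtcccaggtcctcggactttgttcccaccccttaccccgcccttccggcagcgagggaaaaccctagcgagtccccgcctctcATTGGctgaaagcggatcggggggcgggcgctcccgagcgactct
Cyp51: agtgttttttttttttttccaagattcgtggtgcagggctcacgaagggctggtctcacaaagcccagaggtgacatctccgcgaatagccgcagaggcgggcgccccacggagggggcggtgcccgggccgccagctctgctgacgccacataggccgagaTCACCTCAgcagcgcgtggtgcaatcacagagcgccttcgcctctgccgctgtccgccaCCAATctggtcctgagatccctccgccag
Ebp: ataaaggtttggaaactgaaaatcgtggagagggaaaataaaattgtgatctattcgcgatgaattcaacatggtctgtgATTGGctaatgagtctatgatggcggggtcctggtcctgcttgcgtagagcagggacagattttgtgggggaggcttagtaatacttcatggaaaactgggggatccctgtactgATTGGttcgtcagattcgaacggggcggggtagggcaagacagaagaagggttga
Dhcr7: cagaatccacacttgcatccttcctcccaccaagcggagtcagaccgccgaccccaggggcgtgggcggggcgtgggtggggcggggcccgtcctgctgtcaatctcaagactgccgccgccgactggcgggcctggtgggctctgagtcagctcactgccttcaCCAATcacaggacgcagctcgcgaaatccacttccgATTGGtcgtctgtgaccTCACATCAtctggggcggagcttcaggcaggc

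TCACNNCA was present before a start of 3 of the 5 genes, as TCACCCCA 137 bases before the Hmgcs1 start, as TCACCTCA 88 bases before that of Cyp51 and as TCACATCA 32 bases before the third start of Dhcr7. CCAAT was present before a start of all 5, with 3 matches for Hmgcs1, 2 each for Idi1, Ebp and the third start of Dhcr7, and 1 for Cyp51. The first Dhcr7 start had neither, and the second had TCACTTCA alone. Hmgcs1, which was higher in the knockout, and Cyp51, which was lower, therefore both carried the 2 motifs. The Srebf2 window held 2 matches to TCACNNCA and 1 to CCAAT, and that of Insig1 held 1 CCAAT and no TCACNNCA. A match here is a run of letters and no measure of binding.

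Values are log2 of the authors' quantile normalized intensity, which ran from 5.13 to 14.72. Probes with a mean above 5.88, the 40th percentile, were tested, which kept 27979 probes and 13233 named genes, among them 11 of the 12 probes and 7 of the 8 cholesterol synthesis genes. Before normalization, medians were 64.81 and 68.27 on the knockout arrays, against 63.34 and 55.31 on the wild-type arrays. The 75th percentiles were 112.86 and 126.75 on the knockout arrays, against 96.99 and 88.28 on the wild-type arrays. The 8 genes were picked with results of this same contrast known, so their differences are given as descriptions with no test. At an adjusted p under 0.05, limma called 0 of all kept probes (0%, smallest adjusted p 0.0976), with 4568 (16.3%) at an unadjusted p under 0.05. A level in a whole tumour cannot tell fewer cells of a type from less RNA per cell.

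Aoc3 had 7.21 and 7.07 on the knockout arrays, against 7.96 and 7.09 on the wild-type arrays. The groups overlapped, and the difference was -0.39 ± 0.31 (SE, n = 2 each, limma adjusted p = 0.597). It was 0.05 without wild-type replicate 2 and -0.83 without wild-type replicate 3, so 1 array decided its value. With median scaling it was -0.03. A dimmer Aoc3 probe, outside RefSeq transcripts, overlapped and differed by -0.06 ± 0.13 (SE, limma adjusted p = 0.861). The sources used here do not place either probe inside or outside the deletion, so their signal is no check of the genotypes.

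Of the 7 cholesterol synthesis genes kept, 5 were lower on both knockout arrays than on both wild-type arrays at their brightest probe, 1 was higher and 1 overlapped. Lower were Fdps, Sqle, Cyp51, Ebp and Dhcr7, higher was Hmgcs1, and Idi1 overlapped. Over all 13233 genes, 27.7% were lower without overlap and 23.4% higher. The median difference of the 7 genes was -0.31, against -0.03 over all genes. Ebp alone was lower by at least 1.5-fold, as were 5.88% of all genes, and none was higher by that much, against 7.07% of all genes. By probe, 7 of the 11 were lower without overlap, against 25.6% of all probes, and 2 were higher, against 23.6%.

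Hmgcs1 encodes the cytosolic HMG-CoA synthase, which feeds HMG-CoA into the mevalonate route. It had 13.37 and 12.91 on the knockout arrays, against 12.83 and 12.39 on the wild-type arrays. Knockout replicate 1 was the highest and wild-type replicate 3 the lowest, while knockout replicate 2 lay only just above wild-type replicate 2. The means were 13.14 ± 0.32 in the knockout and 12.61 ± 0.32 in wild type (SD, n = 2 each), a difference of 0.53 ± 0.24 (SE) or 1.44-fold. Without knockout replicate 1 the difference was 0.30, and without wild-type replicate 3 it was 0.31.

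Idi1 encodes isopentenyl diphosphate isomerase, which makes the starter unit of isoprenoid chains. Its only probe had 6.05 and 6.00 on the knockout arrays, against 6.12 and 6.03 on the wild-type arrays, close to the filter level. The groups overlapped (-0.05 ± 0.11, SE), and differences of so dim a probe are compressed. Fdft1 encodes squalene synthase, the first enzyme committed to sterols. Its only probe had 5.71 and 5.88 on the knockout arrays, against 5.73 and 5.64 on the wild-type arrays, and did not pass the filter.

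Fdps encodes farnesyl diphosphate synthase, whose product is used for sterols, dolichol, ubiquinone and protein prenylation. Its brighter probe had 12.23 and 12.28 on the knockout arrays, against 12.88 and 12.51 on the wild-type arrays. The knockout arrays agreed closely and both lay below wild type, with means of 12.26 ± 0.04 in the knockout and 12.70 ± 0.26 in wild type (SD, n = 2 each), a difference of -0.44 ± 0.16 (SE), or -0.26 without wild-type replicate 2. Its dimmer probe, for the same RefSeq transcript, had 7.22 and 7.10 on the knockout arrays, against 7.14 and 6.19 on the wild-type arrays. That probe went the other way (0.49 ± 0.33, SE), with overlap and with wild-type replicate 3 far below the other arrays.

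Sqle encodes squalene epoxidase, an oxygen-dependent and rate-controlling enzyme of the sterol branch. Its brightest probe had 11.02 and 11.21 on the knockout arrays, against 11.51 and 11.27 on the wild-type arrays. Knockout replicate 2 and wild-type replicate 3 lay close together, and the difference of -0.27 ± 0.15 (SE) was 1.21-fold, or -0.16 with wild-type replicate 2 left out and -0.18 with knockout replicate 1 left out. A second probe had 7.16 and 7.00 on the knockout arrays, against 6.18 and 6.94 on the wild-type arrays, and was higher in the knockout by 0.52 ± 0.28 (SE), mainly through the low value of wild-type replicate 2. The third probe, annotated to a cDNA outside RefSeq transcripts, lay near the filter level and differed by -0.07 ± 0.11 (SE).

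Cyp51 encodes lanosterol demethylase, the cytochrome P450 of the route. Its brighter probe had 11.54 and 11.21 on the knockout arrays, against 11.72 and 11.65 on the wild-type arrays. Knockout replicate 1 was close to wild type and replicate 2 lower, which gave -0.31 ± 0.16 (SE). Without knockout replicate 2 the difference was -0.14, and without knockout replicate 1 it was -0.47. The dimmer probe had 8.76 and 8.93 on the knockout arrays, against 9.15 and 9.49 on the wild-type arrays. It differed by -0.48 ± 0.16 (SE), so both Cyp51 probes were lower without overlap.

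Ebp encodes emopamil binding protein, a sterol isomerase that moves a double bond in the sterol ring. It had 9.10 and 9.32 on the knockout arrays, against 10.35 and 10.45 on the wild-type arrays. After quantile normalization the gap between the groups was wide and the arrays of each group lay close together. The means were 9.21 ± 0.16 in the knockout and 10.40 ± 0.07 in wild type (SD, n = 2 each), which is 2.28-fold lower in the knockout (-1.19 ± 0.14, SE). Over the other settings and with each array left out in turn, the difference ran from -1.30 to -0.95. With median scaling the arrays of each group lay further apart. Ebp then had 9.03 and 9.65 on the knockout arrays, against 9.98 and 10.62 on the wild-type arrays, still without overlap.

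Dhcr7 encodes the reductase that makes cholesterol from its dehydro precursor, the enzyme deficient in Smith-Lemli-Opitz syndrome. It had 8.28 and 8.11 on the knockout arrays, against 8.87 and 8.58 on the wild-type arrays. Both knockout arrays lay below both wild-type arrays, at 8.20 ± 0.12 in the knockout and 8.73 ± 0.21 in wild type (SD, n = 2 each), or 1.45-fold lower in the knockout (-0.53 ± 0.15, SE). The difference was -0.18 with arrays scaled by the median.

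**Figure D1:**
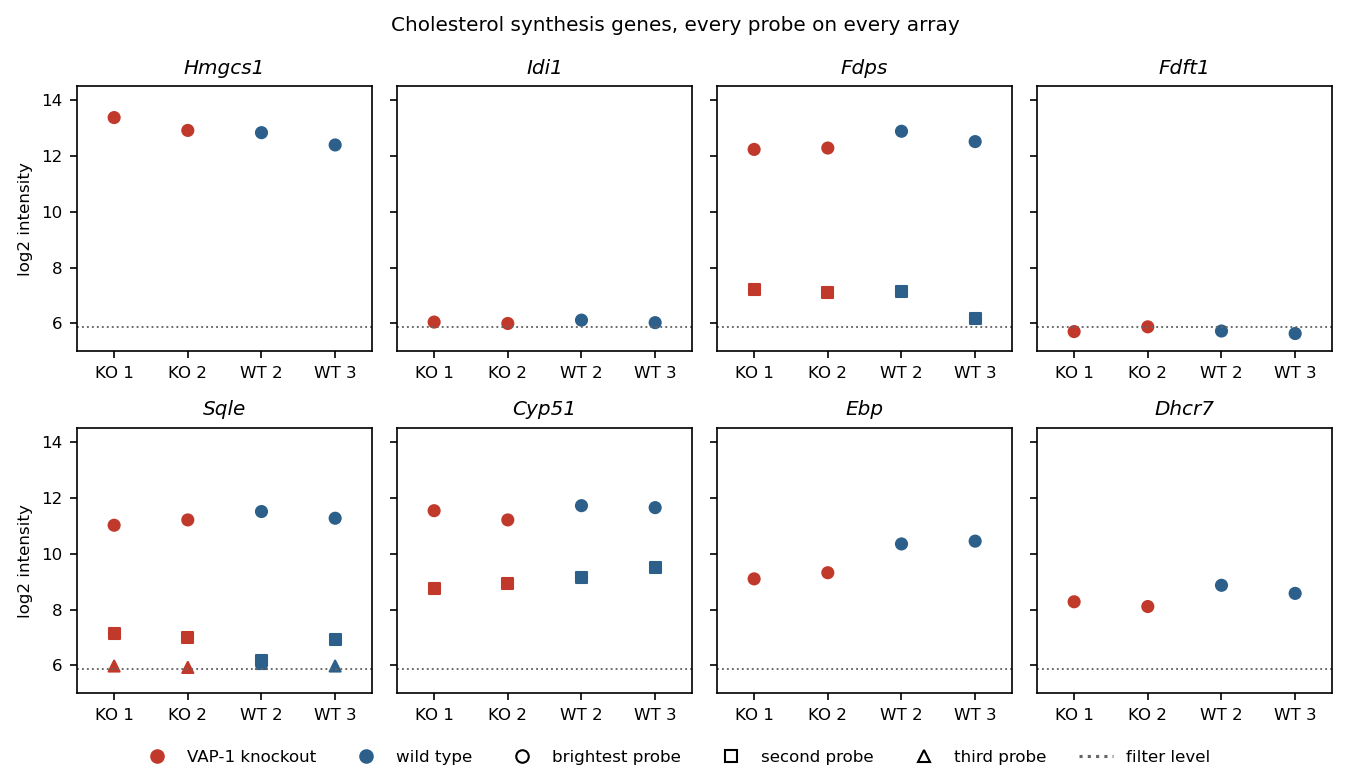
Log2 intensity (vertical axis) of every probe of the 8 genes on the 2 knockout arrays (red) and the 2 wild-type arrays (blue), with circles, squares and triangles for a gene's probes in falling order of brightness and a dotted line at the filter level of 5.88. Ebp shows the widest gap, with 9.10 and 9.32 in the knockout against 10.35 and 10.45 in wild type, and Idi1 and Fdft1 lie at the filter level.

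Expressed around each gene's own mean, the kept genes had a median profile of -0.18 and -0.19 on the knockout arrays, against 0.26 and 0.04 on the wild-type arrays. After quantile normalization, wild-type replicate 2 thus stood higher than wild-type replicate 3 for the typical gene. Hmgcs1, at 0.49 and 0.04 on the knockout arrays against -0.04 and -0.49 on the wild-type arrays, did not share the profile. Among probes of other named genes, those nearest to it by root mean square distance over the 4 arrays were Dazap2 (0.021), Shc1 (0.0226) and Olfr658 (0.0236). With 4 arrays and many probes, such closeness is common, and it is given as a description.

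Of 14 other enzymes of the mevalonate and sterol route, all kept, 5 were lower without overlap, 2 higher and 7 overlapped, against 27.7% lower and 23.4% higher over all genes, and limma called 0 (smallest adjusted p 0.161). Their median difference was 0.04. Mvd, the decarboxylase that yields isopentenyl diphosphate, had 8.18 and 7.96 on the knockout arrays, against 8.48 and 8.92 on the wild-type arrays. Its difference was -0.63 ± 0.19 (SE, limma adjusted p = 0.228), and it was -0.85 with wild-type replicate 2 left out (adjusted p = 0.044), -0.41 with wild-type replicate 3 left out (adjusted p = 0.207) and -0.30 with median scaling (adjusted p = 0.785). Nsdhl, a sterol dehydrogenase that was singled out after its values were seen, had 11.08 and 11.07 on the knockout arrays, against 11.52 and 11.43 on the wild-type arrays (-0.40 ± 0.11, SE, limma adjusted p = 0.202). Its dimmer probes differed by 0.13 and -0.01, and the mean of its probes by -0.09. The 2 higher genes, Ggps1 and Cyp27a1, lie off the direct line to cholesterol. So does Ch25h, which was among the 5 lower genes (-0.48 ± 0.23, SE, limma adjusted p = 0.397). Ggps1, which makes geranylgeranyl diphosphate, had 8.82 and 8.59 on the knockout arrays, against 8.32 and 7.55 on the wild-type arrays. Its difference of 0.77 ± 0.28 (SE, limma adjusted p = 0.292) came from a probe outside RefSeq transcripts and was 1.16 without wild-type replicate 2 (adjusted p = 0.0305) and 0.39 without wild-type replicate 3 (adjusted p = 0.236). Both probes for its RefSeq transcript were below the filter and differed by -0.09 and -0.12. Cyp27a1, which oxidises cholesterol to an oxysterol and bile acid precursor, had 7.08 and 6.68 on the knockout arrays, against 6.19 and 5.90 on the wild-type arrays (0.83 ± 0.19, SE, limma adjusted p = 0.161).

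Among genes of sterol sensing and uptake, 13 of 15 were kept. Of these, 5 were lower without overlap and 2 higher, against 27.7% and 23.4% of all genes, and 6 overlapped, with a median of -0.17 and 0 called by limma (smallest adjusted p 0.153). Srebf2, the activator of the route, had 9.25 and 9.24 on the knockout arrays, against 10.05 and 9.64 on the wild-type arrays. The knockout arrays were nearly equal and both below wild type, by -0.60 ± 0.17 (SE, limma adjusted p = 0.207). Leaving out wild-type replicate 3 gave -0.80 (adjusted p = 0.0443), leaving out wild-type replicate 2 gave -0.40 (adjusted p = 0.146), and median scaling gave -0.32 (adjusted p = 0.563). Its other probes were also lower without overlap, by -0.48 and -0.29. Insig1 had 7.14 and 7.47 on the knockout arrays, against 7.92 and 7.93 on the wild-type arrays (-0.62 ± 0.16, SE, limma adjusted p = 0.175), and with median scaling it differed by -0.26 (adjusted p = 0.748). A second Insig1 probe differed by -0.40 without overlap, and its last probe was below the filter.

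Npc2, the lysosomal protein that hands on cholesterol from taken-up lipoprotein, had the largest difference of these lists at a gene's brightest probe. It had 9.39 and 9.59 on the knockout arrays, against 10.21 and 10.78 on the wild-type arrays. It was 2.01-fold lower in the knockout (-1.01 ± 0.23, SE, limma adjusted p = 0.153), and the difference was -1.29 with wild-type replicate 2 left out (adjusted p = 0.0263), -0.72 with wild-type replicate 3 left out (adjusted p = 0.0707) and -0.81 with median scaling (adjusted p = 0.587). Srebf1 did not pass the filter, at 5.70 and 5.57 on the knockout arrays, against 5.49 and 5.53 on the wild-type arrays. Scarb1, Stard4 and Mbtps1 were singled out after their values were seen because their probes disagreed. They encode the receptor for high-density lipoprotein, a cytosolic sterol carrier and a protease that cuts SREBP-2. For Scarb1 the brightest probe differed by -0.28 with overlap, and a probe outside RefSeq transcripts had 9.23 and 9.40 on the knockout arrays, against 7.92 and 7.15 on the wild-type arrays (1.78 higher, limma adjusted p = 0.12). For Stard4 the brighter probe differed by 0.16 and the other by -0.46, each without overlap. For Mbtps1 the brightest probe differed by 0.19 with overlap. A probe about equally bright differed by 0.65 without overlap (limma adjusted p = 0.159), and a dim one outside RefSeq transcripts by -0.15 without overlap.

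Of 13 fatty acid synthesis genes, all kept, 3 were lower without overlap and 4 higher, against 27.7% and 23.4% of all genes, and 6 overlapped, with a median of -0.01 and 0 called (smallest adjusted p 0.172). Fasn, the fatty acid synthase, had 10.58 and 10.65 on the knockout arrays, against 11.22 and 11.04 on the wild-type arrays, a difference of -0.51 ± 0.13 (SE, limma adjusted p = 0.172). That was the lowest difference of the list, and the highest was that of Elovl6 at 0.55 ± 0.19 (SE, limma adjusted p = 0.278), without overlap. Scd1, a desaturase, overlapped, at 11.12 and 10.63 on the knockout arrays, against 11.41 and 10.74 on the wild-type arrays (-0.20 ± 0.29, SE, limma adjusted p = 0.783). Without knockout replicate 2 the Scd1 difference was 0.05, and without wild-type replicate 2 it was 0.13. Among genes of sterol export and esterification, 4 of 5 were kept, with 1 lower and 0 higher without overlap and a median of -0.03. Of 5 genes of other isoprenoid branches, all kept, 1 was lower and 1 higher without overlap, with a median of -0.22. Limma called 0 in either list, with a smallest adjusted p of 0.598 for export and 0.175 for the isoprenoid branches. Over all 49 kept genes of these 5 lists, 15 were lower and 9 higher without overlap, against 27.7% and 23.4% of all genes, and the median difference was -0.03, that of all genes.

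**Figure D2:**
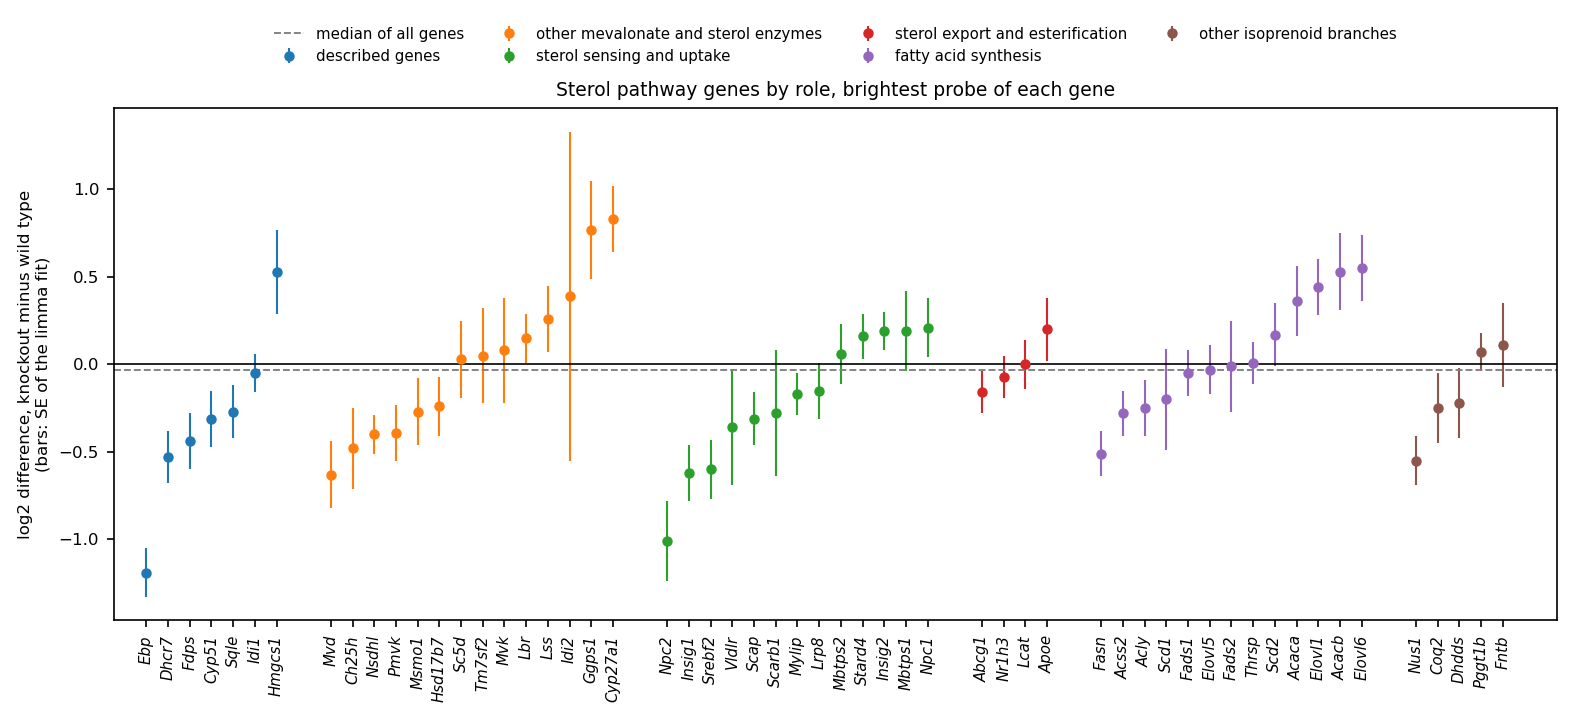
Log2 difference, knockout minus wild type, of the brightest probe of each kept gene (vertical axis; bars are the SE of the limma fit, 2 arrays per group), grouped by role, with a dashed line at the median of all genes, -0.03. Ebp at -1.19 and Npc2 at -1.01 are the lowest points and Cyp27a1 at 0.83 the highest.

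Other cell types differed between the same arrays, and their counts without overlap stand against 27.7% lower and 23.4% higher over all genes. Melanocyte genes were bright on all arrays: the summed intensity of 9 markers was 111033 and 105751 on the knockout arrays, against 97780 and 95138 on the wild-type arrays, with 2 lower and 3 higher without overlap. Erythroid markers were lower in 5 of 6 genes, with sums of 35041 and 20020 on the knockout arrays, against 71053 and 65464 on the wild-type arrays. Granulocyte markers were lower in 5 of 7 kept genes of 9 measured, with sums of 863 and 909 on the knockout arrays, against 2471 and 3634 on the wild-type arrays, while Mmp8 and Ngp lay below the filter. Keratinocyte markers were higher without overlap in 6 of 12 genes and lower in 2, with sums of 22632 and 9292 on the knockout arrays, against 8518 and 7935 on the wild-type arrays. Skeletal muscle markers were higher in 7 of 11 and lower in 1, with sums of 11516 and 5852 on the knockout arrays, against 4615 and 4385 on the wild-type arrays.

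Sebaceous gland cells make much lipid, and 8 of their markers summed to 4966 and 2617 on the knockout arrays, against 3979 and 2968 on the wild-type arrays, with 6 kept, 1 lower and 2 higher without overlap. Adipocyte markers (6 of 8 kept, 2 lower and 1 higher) summed to 1367 and 1487 on the knockout arrays, against 1648 and 1465 on the wild-type arrays. Macrophage markers (6 kept, 2 lower and 2 higher) summed to 3852 and 3904 on the knockout arrays, against 2804 and 3640 on the wild-type arrays. Knockout replicate 1, the array with the most keratinocyte and muscle signal, was also the array with the highest Hmgcs1. Without it, Fdps, Sqle, Cyp51, Ebp and Dhcr7 were still lower on the remaining knockout array than on both wild-type arrays, which follows from their not overlapping before, and Ebp differed by -1.08. The part of these cell types in the differences of the cholesterol synthesis genes was not tested.

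**Figure D3:**
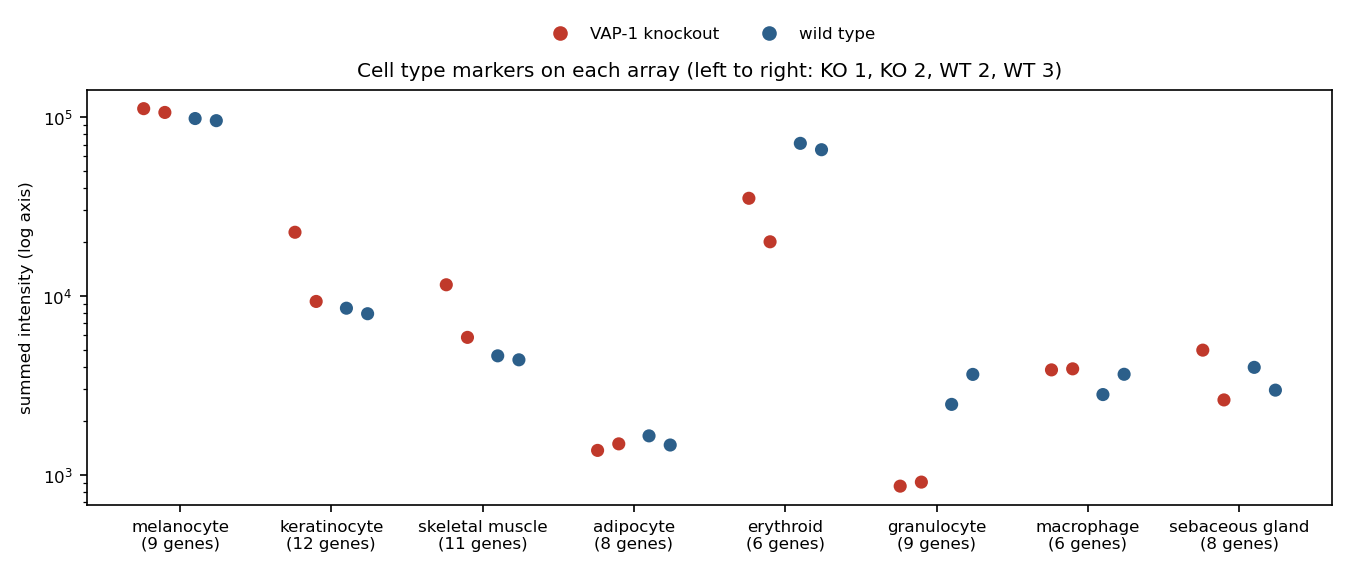
Summed intensity (log axis) of the markers of 8 cell types on each array, in the order knockout 1 and 2 (red) and wild type 2 and 3 (blue). Erythroid and granulocyte sums are lower on both knockout arrays, and keratinocyte and muscle sums are highest on knockout replicate 1.

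Scaling changed the size and overlap of some differences but the sign of none of the 7 kept genes, and the choice of probe changed the sign of 2, Fdps and Sqle. With arrays scaled by the median, the median of all kept probes moved to 0.06 from -0.02, and 9.32% of genes were lower and 34.3% higher without overlap, against 27.7% and 23.4% after quantile normalization. Then 3 of the cholesterol synthesis genes, Fdps, Ebp and Dhcr7, were lower without overlap, while Sqle and Cyp51 overlapped at -0.25 and -0.32. With arrays scaled by the 75th percentile, the median of all kept probes was -0.14, with 33.2% of genes lower and 19% higher, and 6 of the 7 cholesterol synthesis genes were lower, the dim Idi1 among them. Hmgcs1 then overlapped, at 12.99 and 12.84 on the knockout arrays, against 12.75 and 12.86 on the wild-type arrays. Relative to the median of all probes, Hmgcs1 stood at 0.25 and Ebp at -1.02 after either scaling, against 0.55 and -1.17 after quantile normalization. The 2 scalings give equal relative values by construction, since each shifts a whole array by a constant. With the mean of all kept probes in place of the brightest, Fdps differed by 0.02 and Sqle by 0.06, so the lower values of these genes rest on their brightest probes.

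**Figure D4:**
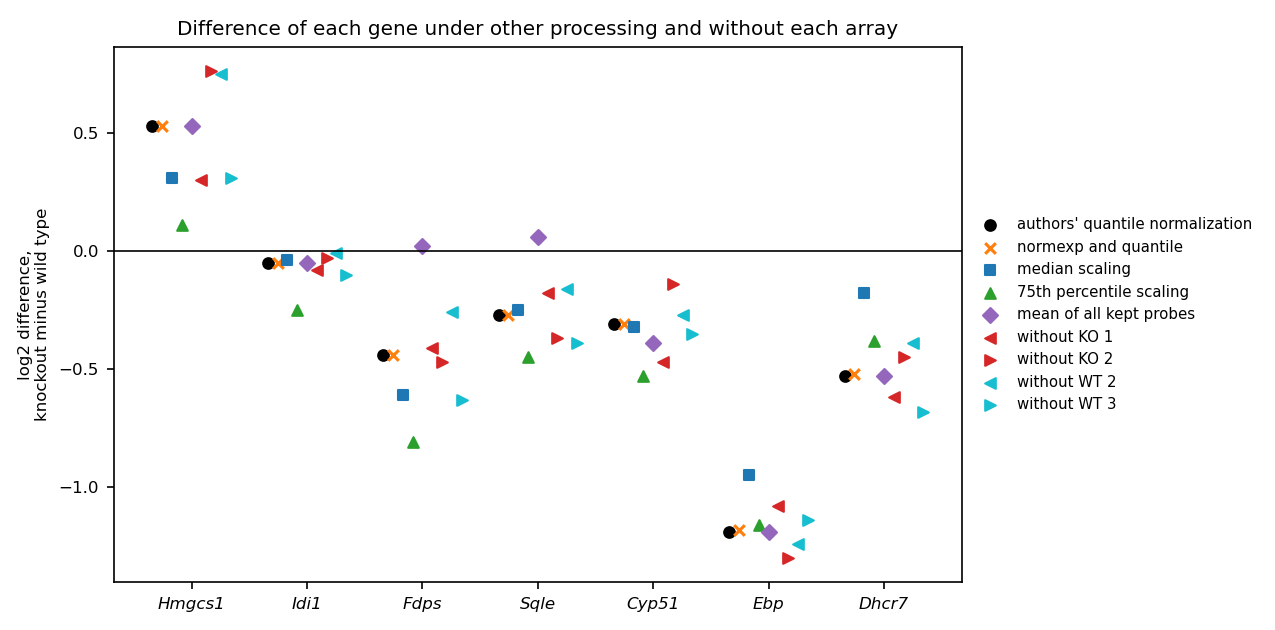
Log2 difference, knockout minus wild type (vertical axis), of the 7 kept genes under the authors' quantile normalization (black circle), under other processing and with each array left out (other symbols). Ebp lies between -1.30 and -0.95 throughout, Hmgcs1 stays above 0 but stands at 0.11 with 75th percentile scaling, and Fdps and Sqle cross 0 with the mean of all kept probes.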

How the data were processed

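Gene expression was measured in 4 tumours, per the labels from 100 ng of total RNA amplified and biotinylated with an Illumina TotalPrep kit and 14 h of in vitro transcription. For array software and batches the sources used here give nothing. Both deposited tables hold intensity on a linear scale. The values of the unnormalized table differ in median between arrays. Those of the processed table are the rank-wise means of the unnormalized columns, which is quantile normalization, found by setting each table against the other: all 46632 processed rows paired with an unnormalized row within 0.001 on the log2 scale, and 11 unnormalized rows had no partner. Gene symbols came from the platform annotation of the processed table: 29976 probes had 1 symbol, 10 several and 16646 none.

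The log2 of the processed values was fitted with limma 3.58.1 in R 4.3.3 (lmFit and eBayes, two-sided), on probes above the 40th percentile of mean value, with Benjamini-Hochberg adjustment over 27979 probes. With 2 residual and 2.71 prior degrees of freedom, precision rests on few arrays, and an exact permutation test of 2 against 2 cannot go below 0.333. A gene is represented by its probe of highest mean. Differences are knockout minus wild type. In 10 simulations with independent probes, only few of them changed, 0.8% of 2-fold changes and 74.9% of 4-fold changes were recovered. On the real arrays 16.3% of kept probes had an unadjusted p under 0.05, so these recovered shares need not hold there. A count of 0 called says little about differences of 2-fold or less, and even S100a8, at -3.34, was not called. Pairing and tables used pandas 2.3.3, numpy 2.4.6 and scipy 1.17.1 in Python 3.11.15.

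The cholesterol synthesis genes and the lists were chosen with earlier results of these data known. Named are all 8 genes with every probe, genes of the other lists with at least 1.5-fold and no overlap, and Srebf1, Srebf2, Insig1, Fasn, Scd1 and Aoc3. Nsdhl, Ch25h, Scarb1, Stard4, Mbtps1 and Elovl6 were added after their values were seen. Of these, only Nsdhl is among the other named genes recomputed under the alternatives. Alternatives were normexp background correction (offset 50) with quantile normalization, scaling by the median or the 75th percentile, no filter or the 70th percentile, a trend and robust prior, the mean of a gene's probes, and each array left out.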

Additional observations from a re-analysis of the deposited data

How the results depend on the processing

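With 1 array left out, the sign of a gene whose groups do not overlap cannot change, so these values bear on size alone. With the mean of all kept probes per gene Fdps was at 0.02 and Sqle at 0.06. This changed the sign of both. It also brought the median difference of the cholesterol synthesis genes to -0.05 from -0.31. The number of them lower without overlap went to 3 (26.7% of all genes) from 5 (27.7% of all genes). That number was also 3 with median scaling (9.32% of all genes). With 1 array left out the median ranged from -0.41 to -0.26. The number ranged from 5 to 6 (37.9% to 45.4% of all genes), with the dim Idi1 as the gene added. Of the other pathway genes, 15 were lower without overlap (27.7% of all genes), 4 with median scaling (9.32% of all genes) and 19 to 26 with 1 array left out (37.9% to 45.4% of all genes), the highest of both without wild-type replicate 2. Their median difference of -0.03 was 0.04 with median scaling. Limma called 0 probes, 4 with a trend and robust prior (0 of them in the lists described), and 0 to 2082 with 1 array left out: 2082 without wild-type replicate 2, 1193 without wild-type replicate 3 and 0 without either knockout array. In these the lone array is assumed to vary like the other group, and the knockout pair is the closer one. Over kept probes, the SD of the log2 difference was 0.258 between the knockout arrays and 0.416 between the wild-type arrays. Between knockout replicate 2 and wild-type replicates 2 and 3 it was 0.421 and 0.41, about that between the wild-type arrays. For knockout replicate 1 it was 0.475 and 0.495. Of 40 differences of the other named genes with 1 array left out, 5 passed the threshold (Ggps1, Mvd, Npc2, Srebf2 and Aoc3) and 3 changed sign. Aoc3 then ranged from -0.83 to 0.05 and Scd1 from -0.53 to 0.13. Median scaling brought Mvd to -0.30, Srebf2 to -0.32 and Insig1 to -0.26, and none of the other named genes changed sign with either scaling. No paired analysis was possible because the groups share only 1 replicate number. With 2 arrays per group and no detection calls, differences of dim probes such as those of Idi1 and Fdft1 cannot be read.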
